A study of Homo sapiens with 10 samples.

Results

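Chemokine ligands are small secreted proteins, one of them membrane-bound, that guide leukocytes toward the cells that make them. The 10 ligand genes described here, CXCL1, CXCL2, CXCL3, CXCL5, CXCL8, CXCL10, CXCL12, CXCL14, CXCL16 and CCL20, were chosen by name and matched by symbol to 10 of the 58884 Ensembl genes in the count tables. RNA-seq was available for 6 libraries of HCT116, a human colorectal carcinoma cell line (genotype WT), and for 4 libraries of DNMT1 KO, a line derived from it by targeting DNMT1, whose product copies DNA methylation onto newly replicated DNA. Neither group received a treatment, and both were grown in the same medium. DNMT1 KO is a single targeted line and a hypomorph, since it still makes a truncated DNMT1, so that effects of the targeting and of the clone cannot be told apart. The labels place HCT116 replicate 1 and DNMT1 KO replicate 1 in batch 1, replicates 2 and 3 of both groups in batch 2, DNMT1 KO replicate 4 in batch 3 and HCT116 replicates 7, 8 and 9 in batch 4.

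CXCL1, CXCL2, CXCL3, CXCL5 and CXCL8 attract neutrophils through CXCR2, and CXCL8 also through CXCR1. Intestinal epithelial cells make these ligands and CCL20, which attracts CCR6-bearing lymphocytes and dendritic cells, when inflammatory signals activate NF-kappaB. CXCL10 is induced by interferons and attracts T cells through CXCR3. CXCL12, the ligand of CXCR4, is mainly a stromal product, CXCL14 is made by many normal epithelia, and CXCL16 is a membrane-bound ligand of CXCR6 that proteases can shed. DNA methylation near the start of a gene is often found with low transcription of that gene. No DNA methylation was analysed here.

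The promoters of the neutrophil-attracting ligands are shown because 4 of these 5 genes were highest in the same HCT116 libraries while CXCL5 gave no count. RefSeq promoter sequences (GRCh38.p14) matched 9 of the 10 genes, all but CXCL16. Their starts can differ from the gene bounds given below, as they do for CXCL2, CXCL3, CXCL8, CXCL12, CXCL14 and CCL20. The stretch shown for CXCL8 thus ends at 73740568, inside the gene bounds that begin at 73740519. For CXCL3 the stretch begins at 74038690, inside the gene bounds that end at 74038807. The stretch for CXCL2 begins at 74099196, the last base of its gene bounds. Of the 250 bases before each start, the last 150 bases are printed 5′ to 3′ on the strand of the gene. Capitals mark matches, on either strand, to the kappaB consensus, to the 9-letter run GGNNTTTCC, to TATAAA and to TGANTCA, the AP-1 motif. The first 2 motifs overlap each other at most places.
CXCL1, plus strand, chr4:73869243-73869392: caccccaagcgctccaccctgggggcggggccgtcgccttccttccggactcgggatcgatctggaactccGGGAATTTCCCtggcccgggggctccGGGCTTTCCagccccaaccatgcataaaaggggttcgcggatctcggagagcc
CXCL2, minus strand, chr4:74099196-74099345: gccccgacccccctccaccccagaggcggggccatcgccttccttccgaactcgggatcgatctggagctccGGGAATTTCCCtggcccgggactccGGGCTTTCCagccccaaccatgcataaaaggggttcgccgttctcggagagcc
CXCL3, minus strand, chr4:74038690-74038839: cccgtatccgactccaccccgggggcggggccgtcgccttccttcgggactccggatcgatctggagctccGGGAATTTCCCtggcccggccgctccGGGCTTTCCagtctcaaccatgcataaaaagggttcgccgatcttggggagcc
CXCL5, minus strand, chr4:73998678-73998827: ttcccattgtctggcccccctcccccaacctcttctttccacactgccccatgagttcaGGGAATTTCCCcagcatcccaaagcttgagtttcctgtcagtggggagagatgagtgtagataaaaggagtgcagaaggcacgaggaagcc
CXCL8, plus strand, chr4:73740419-73740568: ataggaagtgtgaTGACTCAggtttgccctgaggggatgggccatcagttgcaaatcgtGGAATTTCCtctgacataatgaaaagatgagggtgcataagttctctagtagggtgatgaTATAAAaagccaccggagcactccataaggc

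CXCL1, CXCL2, CXCL3 and CXCL5 held the same run, GGGAATTTCC, a kappaB match. A second kappaB match, GGGAAATTCC, overlapped it on the opposite strand. The first run began 79 bases before the start in CXCL1 and CXCL3, 78 bases before it in CXCL2 and 91 bases before it in CXCL5. CXCL1, CXCL2 and CXCL3 also held GGGCTTTCC, 45 to 53 bases before the start. The shown stretches of CXCL1 and CXCL3 were identical at 129 of 150 positions without gaps. CXCL8 held GGAATTTCC from 91 to 83 bases before the start, TATAAA from 31 to 26 and TGACTCA from 137 to 131. Beyond the 5 promoters shown, CXCL10 and CCL20 also matched both kappaB forms, and CXCL12 and CXCL14 matched neither. Among 27303 promoters of the same length, 9.57% held the kappaB consensus, 5.48% held GGNNTTTCC, 11.1% held TATAAA and 6.60% held TGANTCA. CpG dinucleotides, the sites that DNMT1 methylates, numbered 18 to 20 in the 250 bases before CXCL1, CXCL2 and CXCL3, against a median of 11 over all promoters. CXCL12 had 31 and CXCL14 had 25, while CXCL5 had 6, CXCL8 had 4, and CXCL10 and CCL20 had 3 each.

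The 6 HCT116 libraries held 35418732 to 85991812 counts each, and the 4 DNMT1 KO libraries 26700853 to 55732013. DNMT1 itself was at 89.7 to 263 CPM (counts scaled by library size) in HCT116 and at 14.1 to 22.3 CPM in DNMT1 KO, a called decrease (log2 fold change −2.97 ± 0.33 SE, edgeR adjusted p = 1.74e-05). Of the 10 ligand genes, 8 had a count in at least 1 library. A count of 0 in a library allows up to 0.0349 to 0.112 CPM, taken as 3 counts, and such limits cover counting error only. Colon epithelial markers had a summed level of 2002 to 4483 CPM in HCT116 and 455 to 717 CPM in DNMT1 KO, with EPCAM, CDH1, KRT8 and KRT18 called lower, VIL1 called higher and KRT20 at 0 in every library. The summed level of 9 immune markers, all with too few counts to test, was 0.180 to 1.02 CPM in HCT116 and 0.454 to 0.824 CPM in DNMT1 KO, with the defining markers PTPRC and CD3E at no more than 0.127 CPM. Of 10 fibroblast markers, 3 of 4 tested were called higher, and of 6 endothelial markers, 2 of 3 tested. Over all genes tested, 7.42% were called higher and 6.49% lower. Summed fibroblast markers were at 6.49 to 19.8 CPM in HCT116 and 16.7 to 21.6 CPM in DNMT1 KO, and summed endothelial markers at 0.348 to 1.98 and 4.48 to 6.26 CPM. The part of these marker changes in the results below was not tested.

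To compare the genes with each other, CPM was divided by exon length. CXCL16 stood above all other ligands in 10 of 10 libraries, at 38.2 ± 17.7 CPM per kb in HCT116 (SD, n = 6) and 26.0 ± 2.92 CPM per kb in DNMT1 KO (SD, n = 4). By CPM it made up 85.6% to 99.0% of the summed level of the 10 genes in a library. CXCL8 followed at 1.87 ± 1.75 and 1.35 ± 1.46 CPM per kb, and was above CXCL1 in 9 of 10 libraries and above CXCL2 in all 10. CXCL1 (1.57 ± 1.96 and 0.266 ± 0.238 CPM per kb) and CXCL2 (1.01 ± 1.18 and 0.292 ± 0.228 CPM per kb) had no fixed order, with CXCL1 the higher in 5 of 10 libraries. CXCL3 was at 0.403 ± 0.369 and 0.124 ± 0.0659 CPM per kb, below CXCL1 in 9 libraries and below CXCL2 in 9. CCL20 was lower than these 5 genes in all 10 libraries. For CXCL8, CXCL1, CXCL2 and CXCL3 the SD in HCT116 was close to or above the mean, so that neighbours in this order differed by less than their spread over libraries.

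**Figure D1:**
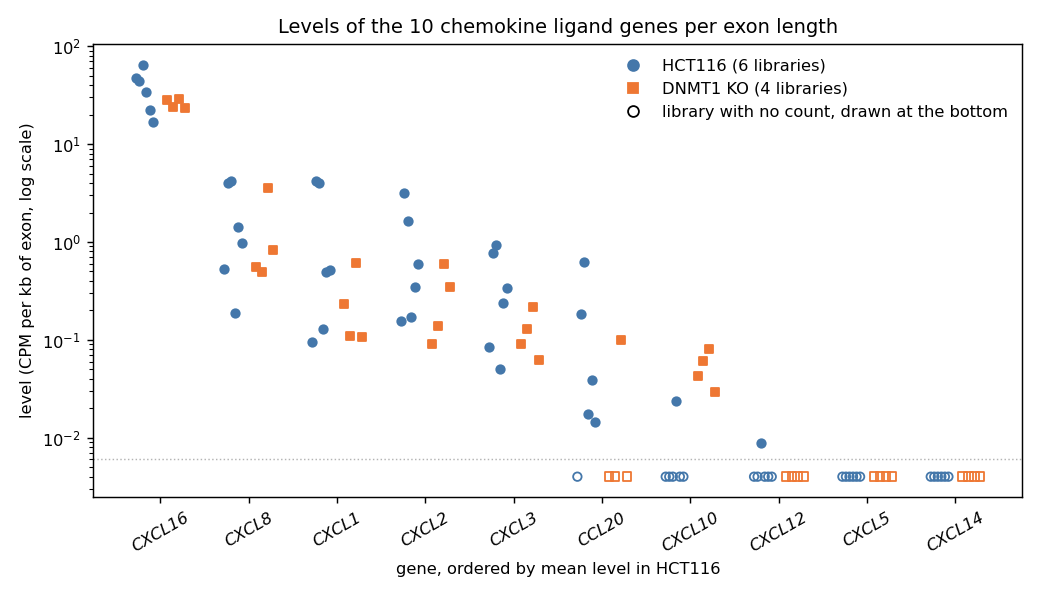
Level of each ligand gene in CPM per kb of exon on a log axis, 1 point per library, for 6 HCT116 libraries (circles) and 4 DNMT1 KO libraries (squares); open symbols at the bottom are libraries with no count. CXCL16 lies above every other gene in all 10 libraries, and CXCL5 and CXCL14 have no count in any.

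CXCL8 (ENSG00000169429, chromosome 4, 73740519 to 73743716, plus strand) codes for interleukin-8. In HCT116 it was at 1.18 CPM in batch 1, at 8.90 and 9.33 CPM in batch 2, and at 0.418, 3.17 and 2.17 CPM in batch 4. In DNMT1 KO it was at 1.24 CPM in batch 1, 1.10 and 7.91 CPM in batch 2 and 1.84 CPM in batch 3. Both HCT116 libraries of batch 2 were high, as was DNMT1 KO replicate 3, and the groups overlapped. The highest library exceeded the lowest by 22.3-fold within HCT116 and by 7.19-fold within DNMT1 KO. In bulk RNA, fewer cells expressing a gene and less RNA per cell cannot be told apart. The groups did not differ beyond this spread (log2 fold change of DNMT1 KO against HCT116 −0.46 ± 0.77 SE, edgeR adjusted p = 0.753). Without DNMT1 KO replicate 3 the fold change was −1.59 ± 0.82 (adjusted p = 0.245).

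CXCL1 (ENSG00000163739, plus strand of chromosome 4, 73869393 to 73871308) had 0.124 CPM in HCT116 of batch 1, 5.41 and 5.18 CPM in batch 2, and 0.167, 0.635 and 0.673 CPM in batch 4. The DNMT1 KO libraries were at 0.303 CPM in batch 1, 0.142 and 0.793 CPM in batch 2, and 0.139 CPM in batch 3. The HCT116 libraries of batch 2 therefore stood above all others, while the remaining HCT116 libraries lay within the range of DNMT1 KO or just below it. Over all libraries the log2 fold change was −2.51 ± 1.03 SE with an edgeR adjusted p of 0.124. Without DNMT1 KO replicate 3 it was −3.37 ± 1.24 (adjusted p = 0.0953). In batch 1, with 1 library per group, the DNMT1 KO library was the higher of the pair.

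CXCL2 (ENSG00000081041, chromosome 4, 74097040 to 74099196, minus strand) followed the same order of HCT116 batches, with 0.216 CPM in batch 1, 4.40 and 2.30 CPM in batch 2, and 0.237, 0.480 and 0.836 CPM in batch 4. DNMT1 KO libraries had 0.126 CPM in batch 1, 0.195 and 0.824 CPM in batch 2, and 0.486 CPM in batch 3. Only the batch 2 libraries of HCT116 exceeded 1 CPM. Between the groups it differed by −1.77 ± 0.86 SE on the log2 scale (edgeR adjusted p = 0.200). Without HCT116 replicate 2 the value was −0.97 ± 0.75 (adjusted p = 0.453), and without DNMT1 KO replicate 3 it was −2.41 ± 1.02 (adjusted p = 0.148).

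CXCL3 (ENSG00000163734, minus strand of chromosome 4, 74036589 to 74038807) was at 0.186 CPM in HCT116 of batch 1, at 1.71 and 2.08 CPM in batch 2 and at 0.111, 0.526 and 0.743 CPM in batch 4. Its DNMT1 KO values were 0.202 CPM in batch 1, 0.284 and 0.476 CPM in batch 2, and 0.139 CPM in batch 3. Again both batch 2 libraries of HCT116 were highest, and the groups overlapped at a log2 fold change of −1.64 ± 0.75 SE (edgeR adjusted p = 0.168). CXCL1, CXCL2 and CXCL3 are close paralogs, so reads can be shared between them. Of the exonic 50-base words of the genome build hg38 in each gene, 4.36% in CXCL1, 13.6% in CXCL2 and 6.22% in CXCL3 also occurred elsewhere, in part in one of the other two, against 0 of 2092 in CXCL8. Such words made up 3.88% in CXCL16, 1.25% in CXCL5 and 1.11% in CCL20, with none in another ligand of the set. Counts of the genes with such words are uncertain to that extent.

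CXCL16 (ENSG00000161921, chromosome 17, 4733533 to 4739928, minus strand) had the most counts by far, 1868 to 6867 per library. HCT116 was at 131 CPM in batch 1, at 123 and 181 CPM in batch 2, and at 95.6, 62.2 and 46.5 CPM in batch 4. DNMT1 KO was at 78.9 CPM in batch 1, 66.6 and 80.6 CPM in batch 2, and 64.9 CPM in batch 3. Within batches 1 and 2 each DNMT1 KO library was below each HCT116 library, whereas 2 of the 3 HCT116 libraries of batch 4 were below all DNMT1 KO libraries. Across all libraries its log2 fold change reached −0.55 ± 0.33 SE (edgeR adjusted p = 0.305). With batch as a term it was −0.94 ± 0.31 (adjusted p = 0.0419), short of the threshold of 1 on the log2 scale. MED11 and ZMYND15 overlap CXCL16 on the opposite strand, and counting named no strand option. At 14.5 and 1.62 CPM in HCT116, both were far below CXCL16, and neither was called between the groups.

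CCL20 (ENSG00000115009, chromosome 2, 227805739 to 227817564, plus strand) had 58 counts over the HCT116 libraries and 10 over the DNMT1 KO libraries. In HCT116 it had 0 counts in batch 1, 13 and 37 counts in batch 2 and 2, 4 and 2 counts in batch 4, while all 10 counts of DNMT1 KO were in replicate 3. The ratio of pooled counts per total, DNMT1 KO over HCT116, was 0.359 (exact 95% interval 0.164 to 0.709, counting error only). That interval does not cover the spread between libraries, and without the filter on low counts the log2 fold change of −2.25 ± 1.12 SE had an edgeR adjusted p of 0.229.

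CXCL10 (ENSG00000169245, chromosome 4, 76021118 to 76023497, minus strand) was the one ligand whose DNMT1 KO libraries all lay above all HCT116 libraries. It had 2, 4, 6 and 1 counts in DNMT1 KO replicates 1 to 4, and in HCT116 only replicate 7 had any, with 2. Of all genes with a count, 6.11% had every DNMT1 KO library above every HCT116 library, and of the ligands 1 of 8 did. The ratio of pooled counts per total was 13.5 (exact 95% interval 3.07 to 124, counting error only), at a level of no more than 0.0951 CPM. Fitted without the filter on low counts, it had a log2 fold change of 3.04 ± 1.25 SE (edgeR adjusted p = 0.127). ART3 overlaps CXCL10 on the opposite strand and had at most 0.0355 CPM. CXCL11, a neighbouring interferon-induced ligand picked here after its values were seen, averaged 0.0129 CPM in HCT116 and 0.137 CPM in DNMT1 KO and was not tested at this depth.

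CXCL12 (ENSG00000107562, chromosome 10) had 2 counts in HCT116 replicate 3 and none elsewhere. CXCL5 (ENSG00000163735, chromosome 4) and CXCL14 (ENSG00000145824, chromosome 5) had no count in any library, which over each group allows up to 0.00841 CPM in HCT116 and 0.0175 CPM in DNMT1 KO. A difference between the groups was not detectable for these genes at this depth. The promoters of CXCL12 and CXCL14 held the most CpG dinucleotides of the 9 searched, CXCL16 not being among these. DNMT1 KO libraries, including those of batch 2, gave no count of either gene, and HCT116 gave only the 2 counts of CXCL12. A link between CpG number and these levels was not tested.

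**Figure D2:**
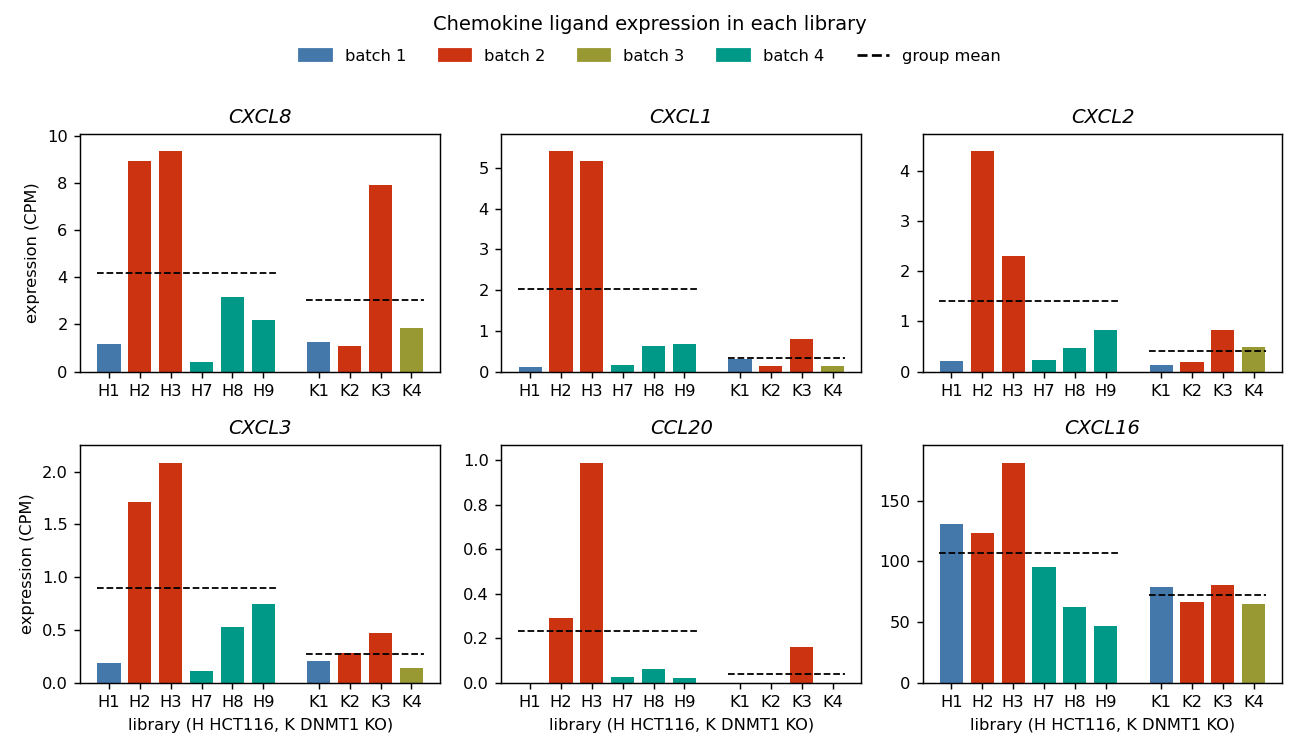
Expression of 6 ligand genes in CPM (linear axes from 0, a scale for each gene) in each HCT116 (H) and DNMT1 KO (K) library, coloured by batch, with dashed lines at the group means. For CXCL8, CXCL1, CXCL2, CXCL3 and CCL20 the highest HCT116 bars are the 2 libraries of batch 2, and DNMT1 KO replicate 3 is the highest of its group in all 6 panels.

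To ask whether ligand expression differed between the genotypes, the counts of all genes were compared between the 4 DNMT1 KO and the 6 HCT116 libraries. Calls needed an adjusted p under 0.05 together with a change of more than 1 in either direction on the log2 scale. Of the 10 ligands, 5 passed the filter on low counts (CXCL1, CXCL2, CXCL3, CXCL8 and CXCL16) and 0 were called by edgeR's quasi-likelihood test, 2 of them having an unadjusted p under 0.05. Among all 19279 genes tested, edgeR called 13.9%, 7.42% higher and 6.49% lower. DESeq2 also called 0 ligands, with 3 at an unadjusted p under 0.05, and 16.0% of all genes. All 5 ligands had a negative log2 fold change, with a median of −1.64 against −0.07 over all genes. The values of these 5 rest on the same 10 libraries and on the same pair of high HCT116 libraries, and so do not count as 5 separate results.

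The size of these values depended on batch 2. Within batch 2, with 2 libraries per group, the log2 fold change of CXCL1 was −3.48 ± 0.78 SE (edgeR adjusted p = 0.0379, called), that of CXCL2 −2.70 ± 0.77 (adjusted p = 0.0823) and that of CXCL3 −2.31 ± 0.59 (adjusted p = 0.0585). CXCL16 was at −1.05 ± 0.34 (adjusted p = 0.119) and CXCL8 at −1.01 ± 0.79 (adjusted p = 0.558) in the same fit, which called 1 of 6 ligands and 8.24% of all genes. Without batch 2, CXCL1 was at −0.81 ± 0.88 (adjusted p = 0.626), CXCL2 at −0.54 ± 0.83 (adjusted p = 0.750), CXCL3 at −1.16 ± 0.91 (adjusted p = 0.473), CXCL8 at −0.13 ± 0.67 (adjusted p = 0.933) and CXCL16 at −0.18 ± 0.38 (adjusted p = 0.822), with 0 of 5 ligands and 10.5% of all genes called. With batch as a term over all libraries CXCL2 was called (−2.29 ± 0.69, adjusted p = 0.0294) and CXCL1 was not (−2.43 ± 0.90, adjusted p = 0.0769), with 16.2% of all genes called. Batches 3 and 4 hold libraries of 1 group each and bear on that fit only through the spread. With batch as a term in batches 1 and 2 alone, CXCL2 had the same log2 fold change of −2.29 ± 0.70 and was not called (adjusted p = 0.0592).

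The spread between HCT116 batches was then measured in the same way, on libraries that also serve in the genotype comparison. With batch 4 (3 libraries) against batches 1 and 2 (3 libraries), edgeR tested 5 ligands and called 0, with 4 at an unadjusted p under 0.05. Of all 18656 genes tested, edgeR called 8.03%, 3.09% higher and 4.94% lower in batch 4. DESeq2 called 2 of the 5, CXCL2 and CXCL16, and 13.2% of all genes. The log2 fold changes were −2.87 ± 0.87 SE for CXCL1 (adjusted p = 0.0561), −2.16 ± 0.77 for CXCL2 (adjusted p = 0.0932), −1.54 ± 0.77 for CXCL3 (adjusted p = 0.222), −1.77 ± 0.70 for CXCL8 (adjusted p = 0.126) and −1.12 ± 0.34 for CXCL16 (adjusted p = 0.0581). For CXCL1, CXCL2, CXCL8 and CXCL16 the value between batches of the one cell line was the larger in size than the genotype value, and for CXCL3 the smaller. The comparisons share HCT116 libraries, and this difference was not tested.

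HCT116 replicate 1, the single library of batch 1, had low values of the neutrophil-attracting ligands. Against batch 2 alone, 6 of 6 ligands tested were called lower in batch 4 by edgeR, where 17.8% of all 20014 genes were called, 8.99% higher and 8.84% lower. CCL20 passed the low-count filter of this fit only through batch 2, where it was high, so its call gives no separate support. The log2 fold change was −4.07 ± 0.89 SE for CCL20 (adjusted p = 0.00435), −3.44 ± 0.51 for CXCL1 (adjusted p = 0.000274), −2.69 ± 0.53 for CXCL2 (adjusted p = 0.00241), −2.27 ± 0.54 for CXCL8 (adjusted p = 0.00737), −2.05 ± 0.61 for CXCL3 (adjusted p = 0.0266) and −1.18 ± 0.35 for CXCL16 (adjusted p = 0.0262). Both HCT116 libraries of batch 2 were above the other 4 for 5 of the 8 ligands with a count, CXCL1, CXCL2, CXCL3, CXCL8 and CCL20. Over all genes with a count in HCT116 this held for 12.7%. In DNMT1 KO, replicate 3 was above the other 3 libraries for 7 of 7 ligands with a count, as it was for 36.3% of all genes with a count there. The other DNMT1 KO library of batch 2, replicate 2, was not high, with CXCL8 7.19-fold and CXCL1 5.58-fold below replicate 3. What sets batch 2 of HCT116 apart was not tested.

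**Figure D3:**
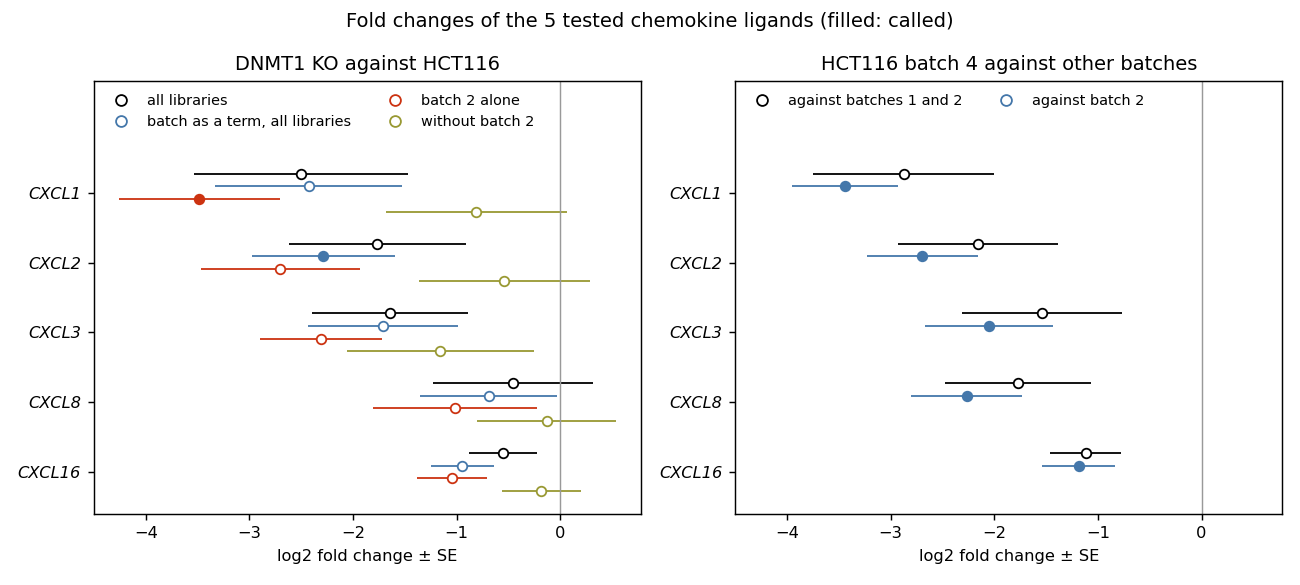
Log2 fold change ± SE of the 5 ligands tested in both comparisons, for DNMT1 KO against HCT116 (left) under 4 choices of libraries and terms and for HCT116 batch 4 against other HCT116 batches (right); filled points are called. Left, the values move toward 0 without batch 2, to between −1.16 and −0.13, and right, all 5 are called against batch 2.

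Receptors were taken for the whole chemokine family, beyond those of the 10 ligands. Of 22 chemokine receptor genes, 3 had no count in any library, 5 were tested and 2 were called higher in DNMT1 KO, with 0 lower. Of all genes tested, edgeR called 7.42% higher and 6.49% lower. CXCR4, the receptor of CXCL12, was at 0.316 to 0.743 CPM in HCT116 and at 2.49 to 3.40 CPM in DNMT1 KO, and the groups did not overlap (log2 fold change 2.35 ± 0.34 SE, edgeR adjusted p = 0.000163). CCR10, the receptor of CCL27 and CCL28, was at 0.0697 to 0.557 CPM and at 1.79 to 5.83 CPM (4.19 ± 0.54, adjusted p = 6.34e-05). CXCR2, the shared receptor of the neutrophil-attracting ligands, averaged 0.243 CPM in HCT116 and 0.190 CPM in DNMT1 KO (log2 fold change −0.26 ± 0.71, adjusted p = 0.851). Both calls stood without batch 2. Of 34 other chemokine ligands, 20 had no count and 1 was tested, CCL26, an eosinophil-attracting ligand, with a log2 fold change of −0.32 ± 0.92 (edgeR adjusted p = 0.857). Between HCT116 batches CCL26 was called higher in batch 4 than in batches 1 and 2 (log2 fold change 3.77, adjusted p = 0.0198). CCL22, which attracts regulatory T cells, was called lower in batch 4 than in batch 2 (−5.99 ± 0.91 SE, edgeR adjusted p = 0.000328), with 3.15 CPM in HCT116 replicate 3. CCL26 passed the low-count filter of its batch fit only through batch 4 and CCL22 only through batch 2, the batches where each was high.

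NF-kappaB subunits, inhibitors and kinases are the machinery that drives several of these promoters in inflamed epithelium. Of this list 20 of 20 genes were tested, with 1 called higher, 1 called lower and a median log2 fold change of −0.10. Over all genes tested, 13.9% were called. TNFAIP3, which codes for A20, an inhibitor of NF-kappaB signalling, was at 2.97 to 11.5 CPM in HCT116 libraries and rose to levels between 93.8 and 156 CPM in DNMT1 KO (log2 fold change 4.38 ± 0.34 SE, edgeR adjusted p = 5.11e-07). NFKBIB, the gene of the inhibitor IkappaB-beta, was at 34.9 to 67.3 CPM in HCT116 and lower, at 11.4 to 19.6 CPM, in DNMT1 KO (−1.70 ± 0.27, adjusted p = 0.000342). RELA, the gene of the p65 subunit, averaged 147 ± 43.4 CPM over HCT116 (SD, n = 6) and 144 ± 13.4 CPM over DNMT1 KO (SD, n = 4), with a log2 fold change of −0.03 ± 0.25 (adjusted p = 0.953). Both calls stood without batch 2 and without DNMT1 KO replicate 3. RELB, the gene of a subunit of the non-canonical pathway, had a log2 fold change of 0.48 ± 0.44 (adjusted p = 0.530) and was called higher in DNMT1 KO without batch 2 (1.40 ± 0.36, adjusted p = 0.0258). Between HCT116 batches, RELB (−1.68, adjusted p = 0.0190) and BCL3 (−1.36, adjusted p = 0.0281) were called lower in batch 4 than in batches 1 and 2. Against batch 2 alone, 5 of the 20 were called lower and 1 higher, where 8.84% of all genes were called lower and 8.99% higher.

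Other NF-kappaB target genes, 19 of 20 found and 11 tested, had 0 called higher and 2 called lower in DNMT1 KO, with a median of −0.37. Among all genes tested, 7.42% were called higher and 6.49% lower. IL18, an inflammasome-processed cytokine of the gut epithelium, was at 50.1 to 127 CPM in HCT116 and 2.04 to 4.47 CPM in DNMT1 KO (log2 fold change −4.81 ± 0.39 SE, edgeR adjusted p = 7.68e-07). LIF, a cytokine of the interleukin-6 family, was at 88.5 to 218 CPM and 3.05 to 7.97 CPM (−4.87 ± 0.40, adjusted p = 7.88e-07). Both were called without batch 2 as well. ICAM1, a leukocyte adhesion molecule, was at 20.9 ± 10.5 CPM in DNMT1 KO (SD, n = 4) and 12.8 ± 10.6 CPM in HCT116 (SD, n = 6), with a log2 fold change of 0.71 ± 0.49 (adjusted p = 0.384). Without batch 2 it was called higher in DNMT1 KO (1.24 ± 0.31, adjusted p = 0.0238), where the 5 ligands tested had negative values. Between HCT116 batches ICAM1 was called lower in batch 4 than in batches 1 and 2 (−1.64, adjusted p = 0.0383), and DNMT1 KO replicate 3, at 36.6 CPM, was again the highest of its group.

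Of 10 proteases known to cleave chemokines, 9 were tested and 1 was called lower, where 6.49% of all genes tested were called lower. MMP7, matrilysin, had 273 counts over HCT116 and none in DNMT1 KO, where it was at least 43.7-fold lower (against 3 counts over the group). ADAM10, a protease that sheds CXCL16, averaged 151 ± 26.2 CPM over the HCT116 libraries (SD, n = 6) and 127 ± 49.4 CPM over the DNMT1 KO libraries (SD, n = 4), with an adjusted p of 0.588. MMP1, collagenase, was called lower in HCT116 batch 4 than in batches 1 and 2 (−4.73, adjusted p = 0.0163).

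Within 250 kb of the ligand genes lay 58 other protein-coding genes, of which 33 were tested. In DNMT1 KO 2 were called higher and 1 lower, with a median log2 fold change of −0.16. The shares over all genes tested were 7.42% higher and 6.49% lower. ALOX15, a lipoxygenase gene near CXCL16, averaged 0.336 CPM in HCT116 and 2.32 CPM in DNMT1 KO (2.84 ± 0.52 SE, edgeR adjusted p = 0.00139). GGT6, a gamma-glutamyltransferase gene also near CXCL16, averaged 0.0398 and 0.465 CPM (3.71 ± 0.84, adjusted p = 0.00628). EPGN, the gene of the growth factor epigen, which lies near the CXCL cluster of chromosome 4, averaged 0.515 and 0.139 CPM (−1.91 ± 0.61, adjusted p = 0.0469). Without batch 2 none of the 3 was called, with adjusted p-values of 0.0551, 0.0733 and 0.541. PFN1, the most highly expressed neighbour, was at a log2 fold change of −0.38 ± 0.30 (adjusted p = 0.454).

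**Figure D4:**
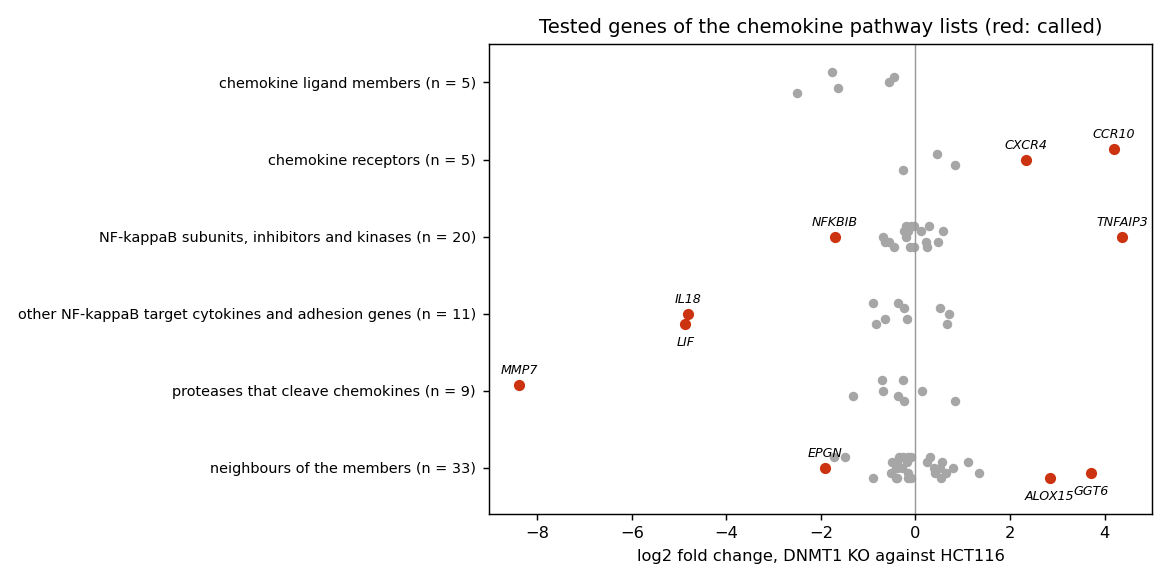
Log2 fold change of DNMT1 KO against HCT116 for the tested genes of 6 lists, 1 point per gene, with called genes in red and named. The 5 ligands are grey and all below 0, whereas the called genes of the other lists lie on both sides of 0; MMP7 has no count in DNMT1 KO, so its position comes from the fit and is no bound.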

How the data were processed

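Poly(A) RNA was sequenced as paired-end libraries prepared with a stranded kit. Per the labels and the study's methods, the authors checked reads with FastQC 0.11.4, trimmed them with Trim Galore 0.4.1, aligned them to hg38 with bowtie2, an aligner that does not place a read over a splice junction, removed reads of low mapping quality and summed exonic reads per gene with featureCounts, no strand option being named. Each deposited table holds the raw, unnormalised counts of 1 library per Ensembl gene. Tables of 3 further HCT116 libraries have no sample in the series' list and were not used here. Coordinates and symbols come from GENCODE 44 on hg38.

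The libraries held between 26700853 and 85991812 counts. Among genes with 1 to 10 counts, 64.4% to 70.0% had even counts in 9 libraries, against 39.9% in DNMT1 KO replicate 4. Counts may thus be mates rather than fragments in these 9, so counting intervals and limits, which cover counting error only, are too narrow if so.

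All genes were fitted in R 4.3.3 with edgeR 4.0.16 (TMM, filterByExpr, glmQLFit and glmQLFTest, group as the only term, two-sided). The study also names edgeR, TMM, filterByExpr, a general linear model and F-tests, but not the terms of its model. The Benjamini-Hochberg adjustment ran over all genes tested. Calls required an adjusted p under 0.05 with more than 1 of change, up or down, on the log2 scale. SEs were derived from the F statistic (size of change over its square root). CPM uses TMM-scaled totals. The main fits of both comparisons were also run on simulated counts, which held no batch effect. The other fits were not. Alternatives were DESeq2 1.42.0, other size factors, filters, halved counts, batch terms, batches alone and each library left out. Of each gene list, up to 6 called genes were named by size of change. Uncalled genes did not all follow the order of mean CPM, as ICAM1, RELB and CXCR2 were named ahead of list genes with higher means. ICAM1 and RELB were called in the fit without batch 2, which was chosen after seeing the data. A few results on list genes are not reported here. The ligands, lists and tests were chosen with earlier results of these data known. The study describes the RNA-seq replicates as independent cultures, so p-values measure the spread between cultures of each line. Shared replicate numbers did not pair the libraries (correlations of deviations 0.53, −0.30 and 0.23 for numbers 1, 2 and 3).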

Additional observations from a re-analysis of the deposited data

Results flagged for a closer look

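In 5 of 15 sets of libraries (a ligand in 1 group), 1 library stood apart from the others by Dixon's 95% criterion. Chance flags about 1 in 20 such sets, but this share does not apply here to the 3 sets in which all other libraries had no count, since their ratio is then 1 by construction, nor to ligands that vary together. CXCL8 in DNMT1 KO replicate 3 was at 7.91 CPM, with the other 3 libraries at 1.10 to 1.84 CPM. CCL20 in the same library was at 0.159 CPM, with no count in the other 3. CCL20 in HCT116 replicate 3 was at 0.989 CPM, with the other 5 at 0 to 0.293 CPM. CXCL10 in HCT116 replicate 7 was at 0.0278 CPM and CXCL12 in HCT116 replicate 3 at 0.0535 CPM, each from 2 counts with none in the other 5 libraries, so that these 2 are at the limit of detection. The CXCL8 value rests on 499 counts and is not limited by depth.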

How the results depend on the processing

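Between genotypes, edgeR called 0 of 5 ligands. It called 1 of 8 without the low-count filter (CXCL1; 9.97% of all genes), 1 of 5 with batch as a term (CXCL2; 16.2% of all genes) and 1 of 6 in batch 2 alone (CXCL1; 8.24% of all genes), and 0 under every other alternative, including without batch 2, which was chosen after seeing the data, and without each library in turn. The fold changes of CXCL1, CXCL2, CXCL3, CXCL8 and CXCL16 stayed negative under every alternative in which they were tested. All genes called numbered 2682, against 1500 where every library had to hold 10 or more counts and 1613 in batch 2 alone. Scaling by library totals alone moved the median of all genes from −0.07 to 0.14 and the calls from 1431 higher and 1251 lower to 1878 higher and 956 lower. CXCL1 and the other 4 ligands stayed negative and uncalled there.

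For HCT116 batch 4 against batches 1 and 2, edgeR called 0 of 5 ligands, against 1 of 5 with library totals alone (7.84% of all genes), 5 of 8 without the filter (7.80%), 1 of 2 with at least 10 counts in every library (9.79%), 2 of 5 by DESeq2 (13.2%), 2 of 5 on halved counts (9.37%) and 6 of 6 against batch 2 alone (17.8%). Leaving out HCT116 replicate 1 is the same fit as the last. In that fit CCL20 passed the low-count filter only through batch 2, where it was high. With each library left out, 0 to 6 ligands were called. All genes called numbered 1498, against 2483 without the filter, 2467 by DESeq2, 3570 against batch 2 alone and 234 to 3570 with each library left out (3570 without replicate 1, 345 without replicate 2, 848 without replicate 3, 424 without replicate 7, 490 without replicate 8 and 234 without replicate 9). The causes were not tested.

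Replicate numbers 1 to 3 occur in both genotypes but did not pair the libraries. With them as a replicate block, 2467 genes and 0 ligands were called, against 2318 genes and 0 ligands in the same 6 libraries with no replicate block. Depth limits CXCL5, CXCL10, CXCL12, CXCL14 and CCL20, which did not pass the low-count filter in the comparison of all DNMT1 KO with all HCT116 libraries.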
